A study of Homo sapiens with 2 samples.

Results

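The 6 genes described here are the MAP kinase kinases MAP2K1 (MEK1) and MAP2K2 (MEK2), the c-Jun N-terminal kinases MAPK9 (JNK2) and MAPK10 (JNK3), and the AP-1 subunits JUN and FOS. They were found by symbol in the authors' deposited pathway table and are 6 of the 2238 changed genes that it lists. The set was chosen with the directions of these genes already known, so those directions are a description and support nothing by themselves. RNA came from SNU-449, a human hepatocellular carcinoma line grown with fetal bovine serum, as 1 control culture and 1 culture exposed to ezetimibe for 24 h. Ezetimibe lowers blood cholesterol by blocking NPC1L1, through which sterols enter cells; its dose and the vehicle of the control were not given in the sources used here. With 1 library per condition there is no replicate check, and every statement describes these libraries. The table gives each changed gene a direction, with no level, fold change or p-value per gene, and sequencing depth is unknown from it. Up is taken to mean higher in the ezetimibe culture because the comparison names it first, and the table offers no check of that order.

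MEK1 and MEK2 are dual-specificity kinases that receive the signal from Ras and the RAF kinases and phosphorylate the ERK MAP kinases. JNK2 and JNK3 belong to a parallel cascade that responds to cytokines and to stress, including endoplasmic reticulum stress through the sensor IRE1, and they phosphorylate the activation domain of c-Jun. JUN and FOS are basic leucine zipper proteins that pair to form AP-1, a transcription factor whose genes are induced within minutes by growth factors and stress. MEK and JNK signalling has been linked to paraptosis, a form of cell death with swelling of the endoplasmic reticulum and mitochondria. All of this signalling runs through protein phosphorylation, which RNA sequencing does not measure.

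The RefSeq promoter table (GRCh38.p14) held at least 1 start site for each of the 6 genes. The 250 bases before each start were searched on both strands for AP-1 letters (TGANTCA), for the form that has 1 more base in the middle (TGACNTCA) and for the core of the cyclic AMP response element (TGACGT, which overlaps TGACNTCA where the middle base is G). The stretches with a match are shown because JUN and FOS were listed in the same direction and AP-1 is itself known to act on the JUN promoter. Each is 30 bases long, 5′ to 3′ on the gene's strand, with the match in capitals.

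JUN, 1:58784096-58784125, minus strand: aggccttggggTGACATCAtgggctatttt
FOS, 14:75278753-75278782, plus strand: ggttgagcccgTGACGTttacactcattca
MAP2K1, 15:66386753-66386782, plus strand: ccgcgctcccgTGACGTatttccgcgtcat
MAPK10, start 1, 4:86360114-86360143, minus strand: tctctgggcttTGACGTCAtgtgtgctcct
MAPK10, start 2, 4:86370887-86370916, minus strand: attctgttcatTGAGTCAtctgaagactct
MAPK10, start 3, 4:86354705-86354734, minus strand: ccaactgtcttTGATGTCAgctttttggtt

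The match began 67 bases before the JUN start and 64 before the FOS start. It began 148 bases before the first of 2 MAP2K1 starts, and 79, 38 and 79 bases before the 3 MAPK10 starts. No match was found for MAP2K2, with 2 starts, or MAPK9, with 3, which says only that these letters are not in those windows. The JUN match was TGACNTCA, and those of FOS and MAP2K1 were TGACGT only, with neither AP-1 form. MAPK10 held TGACNTCA at starts 1 and 3 and TGANTCA at start 2. At start 3 the TGACNTCA match is on the opposite strand, so the gene's strand shows it as TGATGTCA. So matches occurred among genes listed as up and as down. Among all 35116 promoter windows, 6.57% held TGANTCA, 6.87% held TGACNTCA and 7.10% held TGACGT on either strand. A TATA box (TATAAA) lay 33 bases before the FOS start and was held by 10.7% of windows. The CArG box, the element bound by serum response factor, was in 1.16% of windows and in none of the members' windows. Bases farther than 250 from a start were not searched, so a member, FOS included, may hold a CArG box outside its windows.

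Across the table, 25.2% of the 8877 background genes of the pathways were listed as changed, 8.20% as up and 17.0% as down. Of the changed genes, 728 were up and 1510 down, so 32.5% were up (95% interval 30.6 to 34.5, exact by Clopper and Pearson). All such intervals below cover counting error among genes only, and say nothing of how cultures vary. Absence from the table has several possible readings: no change past the authors' threshold, no expression, or no place in a KEGG pathway. The gene lists below were chosen with earlier results of these data known. How many of their genes were listed, and in which direction, is therefore a description and not independent evidence.

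The kinases at the MEK step were both listed as up. MAP2K1 (ENSG00000169032) spans chromosome 15, 66386817 to 66492312, plus strand, in GENCODE release 29 on GRCh38, and was listed as up under 80 pathways. MAP2K2 (ENSG00000126934; chromosome 19, 4090321 to 4124129, minus strand) was listed as up under 68. All 68 of these are among the 80 of MAP2K1. Those with MAP2K1 alone include TNF signaling, Focal adhesion, Osteoclast differentiation and Chemokine signaling, so the gap reflects how KEGG annotates the pair.

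The JNK kinases were both listed as down. MAPK9 (ENSG00000050748; chromosome 5, 180233143 to 180292099, minus strand), the JNK2 gene, was under 60 pathways. MAPK10 (ENSG00000109339; chromosome 4, 85990007 to 86594625, minus strand), the JNK3 gene, known mainly from brain, heart and testis, was under 59. The 59 are all among the 60, and T cell receptor signaling held MAPK9 alone. The JNK1 gene MAPK8 was not listed, nor was MAPK3, which encodes a substrate of MEK1 and MEK2.

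The AP-1 genes were both listed as up. JUN (ENSG00000177606; chromosome 1, 58780788 to 58784327, minus strand), which has 1 exon, was under 49 pathways. FOS (ENSG00000170345; chromosome 14, 75278774 to 75282230, plus strand), with 4 exons, was under 36. They shared 31 pathways, which is 63.3% of those of JUN and 86.1% of those of FOS. The median changed gene was under 2 pathways and the most widely listed under 90; the number describes annotation and not the size of a change.

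**Figure D1:**
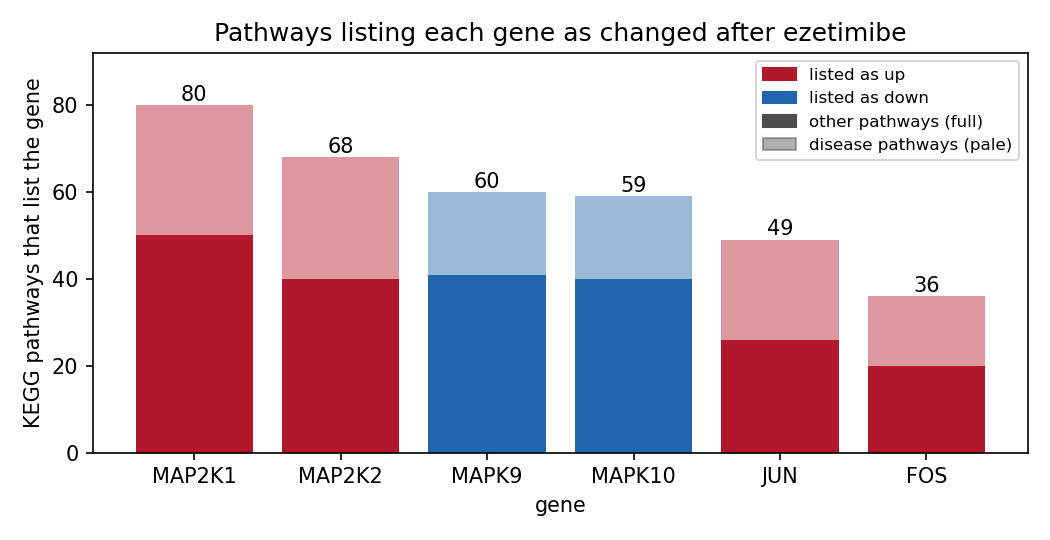
Number of KEGG pathways (vertical axis) that list each of the 6 genes as changed after ezetimibe, split into disease pathways (pale) and others (full colour), with red for genes listed as up and blue for genes listed as down. MAP2K1 leads with 80 pathways, and only the JNK genes MAPK9 (60) and MAPK10 (59) among the 6 are blue.

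The counting behind the table could mix some of these genes with others. In GENCODE release 29, exons of MAP2K1 overlap those of SNAPC5 and of the antisense gene AC116913.1 on the other strand. Exons of MAPK10 overlap those of ARHGAP24 and of the phosphatase gene PTPN13, and PTPN13 was itself listed as down. The strand setting of the counting was not given in the sources used here, and without it reads from such pairs cannot be told apart. MAP2K1 also has a processed pseudogene, MAP2K1P1. No gene overlapped the exons of MAP2K2, MAPK9, JUN or FOS.

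Around MEK, the listed genes above the kinases were mostly down, as were changed genes in general. The RAF step was represented by 1 gene listed as up. Of 36 genes in the list of the Ras, RAF, MEK and ERK branch, 16 were listed as changed (44.4%, against 25.2% of the background), 7 up and 9 down. The exchange factors SOS1 and SOS2 that load Ras with GTP, under 45 pathways each, were down. The GTPase-activating proteins NF1 and RASA1, which switch Ras off, were down as well, as were the adaptors GAB1 and SHC3, the phosphatase PTPN11 (SHP2) and the scaffold KSR2. Listed as up were the RAF kinase ARAF (33 pathways), the adaptor SHC2 (21), the Ras relative MRAS (11), the exchange factor RASGRP3 (5), and MAPK7 (8), which encodes ERK5 and lies in a separate branch below MAP2K5. BRAF, HRAS and NRAS were not listed. MAP2K1 and MAP2K2 were chosen because they are listed, which raises the 44.4%. Without them the branch held 5 genes up and 9 down. That is 35.7% up (12.8 to 64.9), beside 32.5% of all changed genes.

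In the JNK branch most listed genes were down. Of its 29 genes, 10 were listed (34.5%, against 25.2% of the background), 2 up and 8 down. The share up was 20% (2.52 to 55.6), an interval that includes the 32.5% of all changed genes. MAPK9 and MAPK10 were chosen because they are listed, with their directions known, which raises the 34.5%. Without them, 2 were up and 6 down (25.0%, 3.19 to 65.1). The MEK and ERK branch without its members had 35.7% up (12.8 to 64.9), and the difference was not tested. Apart from MAPK9 and MAPK10, those down were upstream kinases: MAP3K1 (MEKK1), MAP3K2, MAP3K4, MAP3K12 (DLK), MAP3K20 (ZAK, which the ribotoxic stress response uses) and TAOK1. MAP3K20 was found through its gene ID, since the table gives it another name. Listed as up were MAP3K13 (LZK) and the JNK scaffold MAPK8IP2. The kinases directly above JNK, MAP2K4 and MAP2K7, were not listed, nor was the stress kinase MAP3K5 (ASK1). Of the 9 genes of the p38 branch, 3 were listed (33.3%, against 25.2% of the background). These were MAPK14 (p38 alpha, 49 pathways) and its activator MAP2K6 (18) as down, and the downstream kinase MAPKAPK3 (2) as up.

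At the level of AP-1, the listed genes shared 1 direction. Of 14 AP-1 and related leucine zipper genes, 4 were listed, and all 4 were up: JUN, FOS, FOSB (5 pathways) and FOSL1 (4), which encodes FRA1. With JUN and FOS left out, 2 genes remain. JUNB, JUND, FOSL2, ATF2 and ATF3 were among the 10 not listed. The 28.6% of the list that was changed, against 25.2% of the background, counts JUN and FOS, which were chosen because they are listed. It is therefore no measure of how often AP-1 genes changed.

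Other nuclear targets of the MAP kinases were 8 up and 4 down of 12 listed among 25 (48.0% listed, against 25.2% of the background). The share up was 66.7% (34.9 to 90.1), against 32.5% of all changed genes. The list was chosen with earlier results of these data known, so neither the share listed nor the share up is independent evidence. ELK1, the ternary complex factor through which ERK is known to act on the FOS gene, was up (16 pathways), and its relative ELK4 was down (3). The immediate early gene EGR1 (6), the oncogene MYC (32) and ETS2 (2) were up, as were the stress response factors ATF4 (32) and DDIT3 (CHOP, 5). Of the kinases below ERK and p38, RPS6KA2 (RSK3) was up, and RPS6KA5 (MSK1) and RPS6KA6 (RSK4) were down, each under 8 pathways; NFATC2 (18) was down. SRF, the partner of the ternary complex factors, was not listed.

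Phosphatases that switch MAP kinases off were 5 up and 3 down of 8 listed among 17 (47.1% listed, against 25.2% of the background). The share up was 62.5% (24.5 to 91.5), an interval that includes the 32.5% of all changed genes. DUSP1, DUSP2 and DUSP5 were up, as were DUSP8 and DUSP10, which act mainly on JNK and p38. DUSP4 was down, as were PPM1A and PPM1B, which remove phosphate from stress kinases. DUSP6, the cytoplasmic phosphatase of ERK, was not listed.

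Of 24 genes known as targets of AP-1, 16 were listed (66.7%, against 25.2% of the background), 12 up and 4 down. The share up was 75.0% (47.6 to 92.7), against 32.5% of all changed genes. As this list too was chosen with earlier results of these data known, neither the share listed nor the share up is independent evidence. The matrix metalloproteinases MMP1 (6 pathways), MMP3 (5) and MMP9 (14) were up, as were the metalloproteinase inhibitor TIMP1 (1) and the cytokines and chemokines IL6 (43), CXCL8 (27), CSF2 (15), CXCL1 (11), CXCL2 (9) and CXCL3 (8). VEGFA (21) and the haem oxygenase HMOX1 (9) completed the genes listed as up. Cyclin D1, CCND1 (46), the urokinase gene PLAU (6), the chemokine CCL2 (13) and osteopontin, SPP1 (6), were down. Many of these genes are also targets of NF-kB, and a target list says nothing of which factor acted here.

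**Figure D2:**
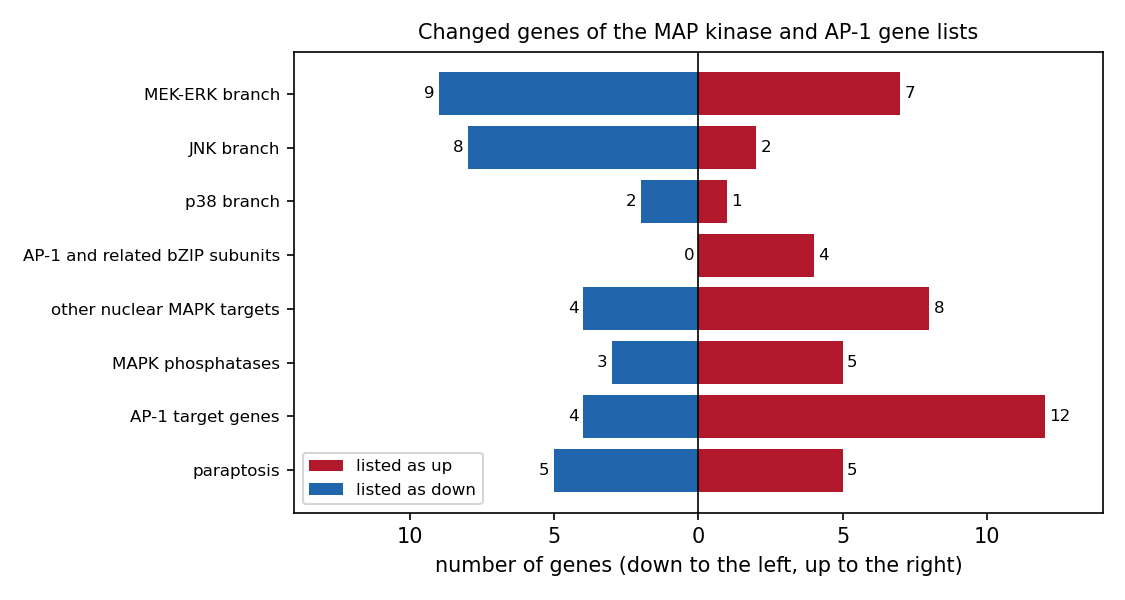
Number of genes listed as up (red, right) and down (blue, left) in each of the 8 gene lists around the MAP kinases and AP-1. The JNK branch has 8 down and 2 up, the AP-1 subunits 4 up and 0 down, and the AP-1 targets 12 up and 4 down.

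For paraptosis, 10 of 16 list genes were listed (62.5%, against 25.2% of the background), 5 up and 5 down (50.0% up, 18.7 to 81.3, against 32.5% of all changed genes). As 4 of the 10 belong to the 6 genes chosen because they are listed, that choice raises the 62.5%. Without these 4, 3 up and 3 down of 6 remain. The genes up were MAP2K1, MAP2K2, the chaperone HSPA5 (5 pathways), DDIT3 and ATF4. Those down were MAPK9, MAPK10, the insulin-like growth factor receptor IGF1R (29), its substrate IRS1 (17) and the receptor TNFRSF19 (1), which is known to induce this form of death. PDCD6IP (AIP1), an inhibitor of paraptosis, and MAPK8 were not listed. The MEK and JNK genes that this list shares with the 6 members thus stood on opposite sides.

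KEGG's MAPK signaling pathway holds all 6 genes. In the authors' deposited table it had 45 up and 66 down among 332 genes, with a rich factor of 1.33 (p = 0.00442, q = 0.0321). The rich factor divides the pathway's share among changed genes by its share among background genes. The share up was 40.5% (31.3 to 50.3), and 39.0% without the 6 genes. Every changed gene of the pathway was placed in a role after its direction was seen, so the split that follows is a description. Of 16 ligands, 4 were up, including FGF8, FGF18 and VEGFA, and 12 down, among them TGFA, EREG, PDGFB and KITLG. All 7 receptor tyrosine kinases were down: EPHA2, ERBB3, ERBB4, FGFR3, FGFR4, IGF1R and MET. Of 8 Ras proteins and regulators, 3 were up and 5 down, and of 11 kinases above the MAP kinase kinases, 3 were up and 8 down. At the end of the cascade, 11 of 12 transcription factors were up, with ELK4 as the exception; besides JUN and FOS they included the NF-kB genes NFKB1, NFKB2, RELA and RELB. The MAP kinase kinases were 2 up, MAP2K1 and MAP2K2, and 1 down. The MAP kinases were 1 up and 3 down, with MAPK9 and MAPK10 among those down. As the directions of the 6 genes were known when they were chosen, where they stand among the roles is a description only.

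**Figure D3:**
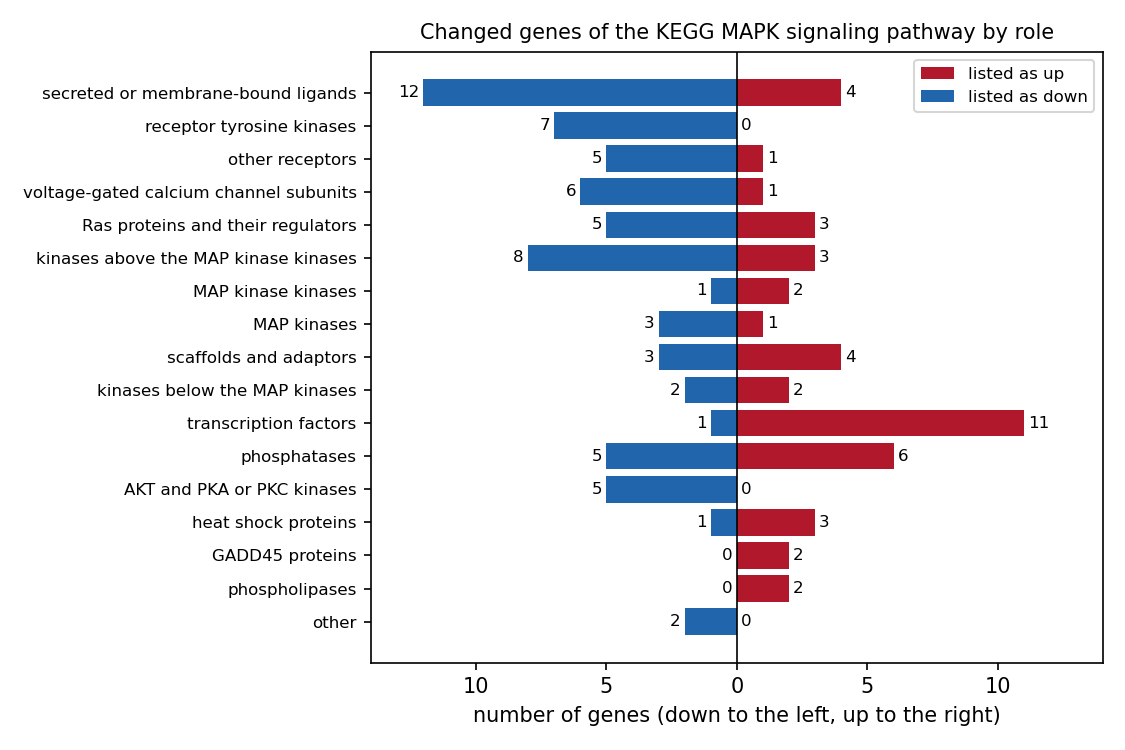
Changed genes of the KEGG MAPK signaling pathway by role, listed as up (red, right) or down (blue, left). Receptor tyrosine kinases are 0 up and 7 down, and transcription factors 11 up and 1 down.

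The 6 genes were spread over 117 of the 327 pathways, 46 of them disease pathways, and 13 pathways held all 6. These 13 include Apoptosis, Toll-like receptor signaling, cAMP signaling, Relaxin signaling, Hepatitis B and Colorectal cancer. The other changed genes of the 117 pathways numbered 1107, of which 383 were up and 724 down, a share up of 34.6% (31.8 to 37.5). The 1125 changed genes in none of these pathways had 30.3% up (27.6 to 33.1), so the intervals overlap.

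The other changed genes were also counted by which members a pathway holds. All pathways with a MEK gene had 32.1% of their other changed genes up (29.1 to 35.3), all with a JNK gene 36.5% (33.3 to 39.8) and all with an AP-1 gene 34.3% (30.9 to 37.9), beside 32.5% for all changed genes. In the 43 pathways with a MEK gene and no JNK or AP-1 gene, 29.6% of 648 other changed genes were up (26.1 to 33.3), and the median pathway had 26.5% up. In the 12 pathways with a JNK gene and neither MEK nor AP-1, 46.5% of 299 genes were up (40.7 to 52.3), with a median of 41.8% per pathway. The 18 pathways with JNK and AP-1 had 37.9% of 398 genes up (33.2 to 42.9), the 7 with AP-1 alone 43.0% of 149 (34.9 to 51.3), and the 22 with all 3 kinds 31.7% of 505 (27.6 to 35.9). The 8 pathways with MEK and JNK had 34.3% of 236 genes up (28.3 to 40.8), and the 7 with MEK and AP-1 36.3% of 182 (29.3 to 43.7). The higher share of the 12 pathways with JNK alone was thus not seen in the 22 that hold all 3 kinds, the largest class with a JNK gene. These classes share genes and were not tested against each other.

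**Figure D4:**
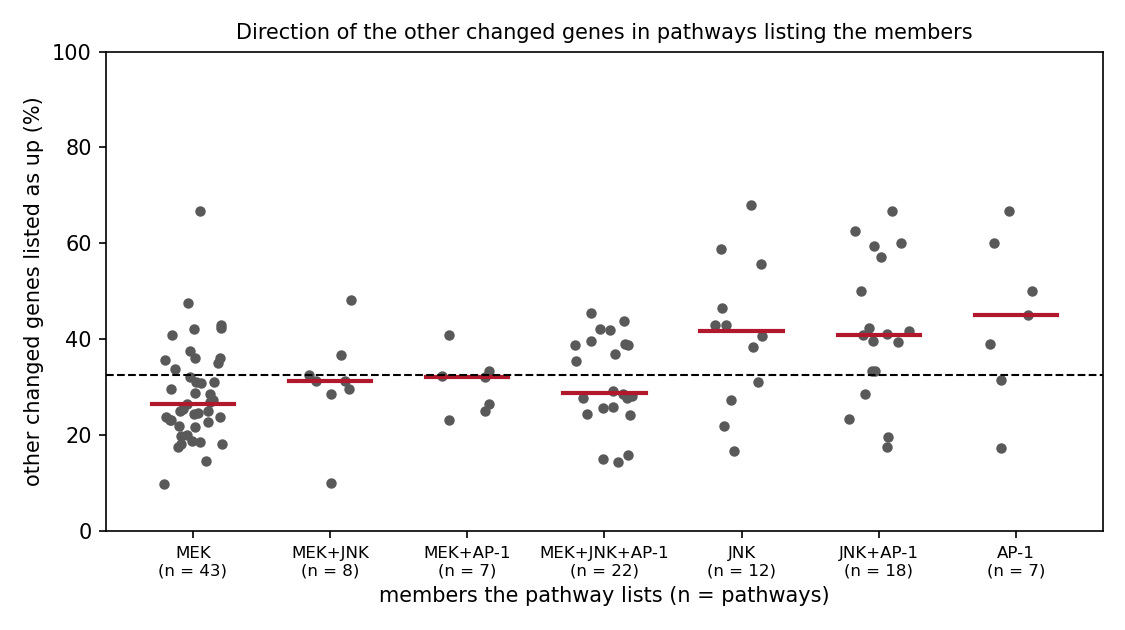
Share of the other changed genes listed as up (%, vertical axis) in each of the 117 pathways, grouped by which of the MEK, JNK and AP-1 genes the pathway lists. Each point is a pathway, the red bar is the median of the group, and the dashed line is the 32.5% of all changed genes; medians run from 26.5% for MEK alone to 45.0% for AP-1 alone.

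Within the 12 pathways with JNK alone, the share up of the other genes ran from 16.7% in Retrograde endocannabinoid signaling to 68.1% in Protein processing in endoplasmic reticulum. In the authors' deposited table the latter had 49 genes up and 25 down of 190 (p = 0.00042, q = 0.00625), and MAPK9 and MAPK10 were among the 25. IL-17 signaling, which holds JUN, FOS and both JNK genes, had 24 up and 17 down of 111 in the authors' deposited table (p = 0.0167, q = 0.0829). Mitophagy, with JUN and the JNK genes, had 15 up and 9 down of 73 in the authors' deposited table (p = 0.167). TNF signaling, with every member except MAP2K2, had 23 up and 26 down of 130 in the authors' deposited table (p = 0.00659). Non-alcoholic fatty liver disease, with JUN and the JNK genes, had 18 up and 28 down in the authors' deposited table (p = 0.794).

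The pathways with a member and the smallest p in the authors' deposited table were Hepatocellular carcinoma (21 up, 59 down of 179; p = 2.62e-06), Pathways in cancer (58 up, 143 down of 557; p = 2.86e-06) and Colorectal cancer (14 up, 31 down of 88; p = 1.49e-05). Next in the authors' deposited table were Glioma (p = 5.17e-05), Gastric cancer (p = 0.000151), Apoptosis (p = 0.000153), Pancreatic cancer (p = 0.00017), Neurotrophin signaling (p = 0.000178), Chronic myeloid leukemia (p = 0.000219) and Proteoglycans in cancer (p = 0.000227). All of these 10 hold MAP2K1, and 5 hold the JNK genes. Among other signalling pathways in the authors' deposited table, FoxO had 16 up and 37 down (p = 0.00446, q = 0.0317). Oxytocin had 17 up and 43 down in the authors' deposited table (p = 0.00281, q = 0.0262). GnRH (11 up, 25 down, p = 0.0194, q = 0.0931) and ErbB (11 up, 22 down, p = 0.0244, q = 0.112) had larger q-values in the authors' deposited table. The shares up of these pathways, 30.2%, 28.3%, 30.6% and 33.3% in that order, were near the 32.5% of all changed genes. Ras signaling (23 up, 52 down), Cholinergic synapse (11 up, 25 down), Estrogen signaling (18 up, 28 down), Toll-like receptor signaling (17 up, 20 down) and Osteoclast differentiation (17 up, 20 down) had p-values from 0.0865 to 1 in the authors' deposited table. Such p-values treat genes as independent units and describe a list from 1 library per condition.

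By the pathways they share, the genes most like MAP2K1 included MAP2K2 (Jaccard index, the shared pathways over those with either gene, 0.85) and AKT1 (0.602), which was listed as down. For MAP2K2 they included MAP2K1 and SOS1 (0.548). The closest to MAPK9 were MAPK10 (0.983), JUN (0.535) and MAPK14 (0.514), and to MAPK10 they were MAPK9, JUN (0.521) and MAPK14 (0.50). JUN was closest to FOS (0.574) and then to MAPK9 and MAPK10, as was FOS to JUN, MAPK9 (0.371) and MAPK10 (0.357). The index measures annotation and not expression.

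The direction of a changed gene went with the GC content of its transcript, here the longest protein-coding one in GENCODE. Genes listed as up had a median of 55.4% and those down 43.9%. MAPK10 had 39.5% GC, and when the changed genes were ranked by GC and split into 10 groups of about equal size, 6.70% of the 224 genes in its group were up (3.80 to 10.8). MAPK9 had 43.4%, in a group where 17.9% were up (13.1 to 23.5). MAP2K1 had 50.4% (37.9% up in its group, 31.6 to 44.7), FOS 52.6% (50.9%, 44.1 to 57.6), JUN 56.7% (56.5%, 49.7 to 63.1) and MAP2K2 65.5% (64.6%, 57.9 to 70.8). Both genes listed as down thus had less GC than each of the 4 listed as up. The same held for the medians of the MEK and ERK branch (58.9% up, 40.3% down), the JNK branch (56.0% and 41.1%) and the MAPK signaling pathway (56.7% and 42.5%). The AP-1 targets were closer together, at 45.8% for those up and 45.7% for those down, and CXCL8, listed as up, had 33.4%, in the group with the lowest GC, where 3.12% of genes were up. The length of the same transcript also went with direction, with a median of 2666 bases for genes up and 4208 for genes down. It was 4815 bases for MAPK9 and 8941 for MAPK10. The 4 members listed as up ran from 1734 (MAP2K2) to 3540 (JUN). The parts of GC content and of transcript length in these directions were not tested.

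**Figure D5:**
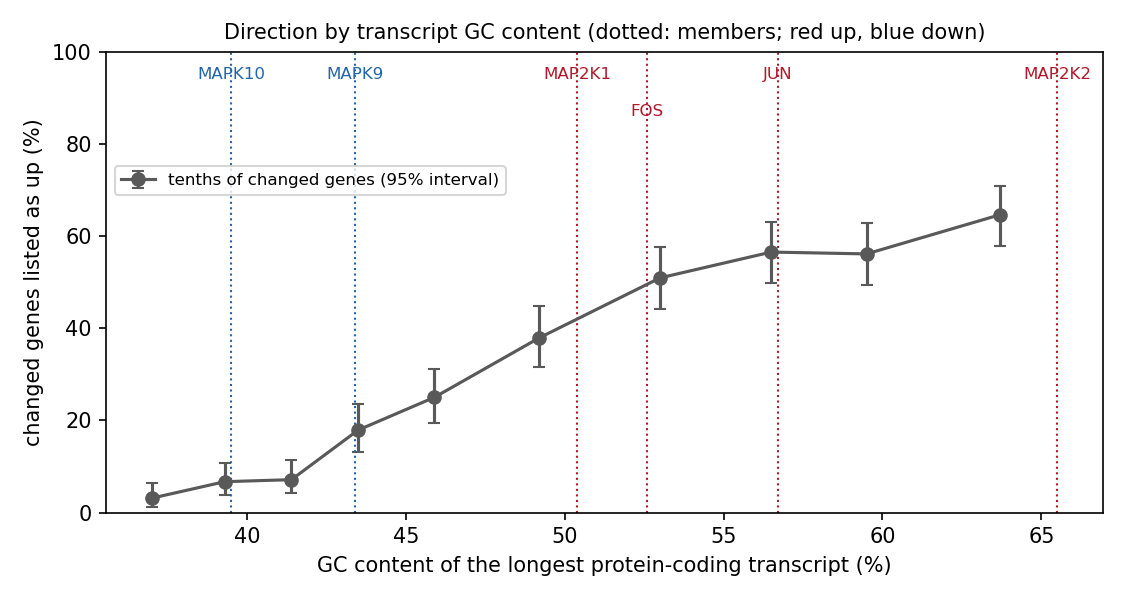
Share of changed genes listed as up (%, vertical axis) against the GC content of the longest protein-coding transcript (%, horizontal axis), for 10 groups of about equal size placed at their median, with exact 95% intervals. Dotted lines mark the 6 genes, red for up and blue for down; the share runs from 3.12% to 64.6%, with MAPK10 and MAPK9 at the low end.

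The liver origin of the cells could not be checked, as the table has no levels. Of 11 hepatocyte markers 4 were listed (36.4%, against 25.2% of the background), all down (CPS1, FGA, FGB and FGG), and ALB was not listed. Of 6 fibroblast markers 3 were listed (50.0%), COL1A1, COL1A2 and ACTA2, all down. Of 7 immune cell markers only the monocyte marker CD14 was listed (14.3%), as down, and none of 4 endothelial markers was. Most changed genes of any kind were down (1510 of 2238), and a loss of cell type markers was not tested.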

How the data were processed

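Total RNA of 1 control and 1 ezetimibe culture was sequenced. The aligner HISAT2 2.0.4 and the assembler StringTie 1.3.0 are named, per the submitters' processing notes; genome build, annotation, settings and depth were not given in the sources used here. From the deposited table's name, the authors ran edgeR and then a KEGG enrichment; no threshold is stated. Per the file headers, the authors' table gives for each of 327 pathways the genes up and down, the background, an enrichment ratio (rich factor) and its p-value and q-value, all printed as theirs.

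The members and the gene lists were chosen with earlier results of these data known. Directions were read from the gene lists, which matched the deposited numbers in every pathway. List symbols were matched by name or gene ID (87 entries, 86 by exact symbol). Named were the 6 members, the listed genes of each list (up to 6 per direction under the most pathways where more than 12 were listed, with some others named after their values were seen), the 3 genes with the highest Jaccard index per member, the 10 member pathways with the smallest authors' p and a fixed set of pathways. Some genes that these rules take are not reported here. Shares have exact Clopper-Pearson 95% intervals. GC content came from GENCODE release 29 for 2237 of 2238 genes, promoters from RefSeq. No test between groups was possible. The reading of the table was tested on simulated data. Alternatives changed the pathways or genes counted. Python 3.11.15, pandas 2.3.3, NumPy 2.4.6, SciPy 1.17.1 and Matplotlib 3.10.9 were used.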

Additional observations from a re-analysis of the deposited data

How the results depend on the processing

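Under 37 alternatives to 10 shares of genes listed as up, each share stayed within the exact 95% interval of its main value. The alternatives kept pathways with an authors' p below 0.05, left out disease pathways, the 6 members or genes under more than 20 pathways, or matched exact symbols only. The share up ran from 35.7% to 46.7% in the MEK and ERK branch, from 20% to 25.0% in the JNK branch, from 73.3% to 75.0% among AP-1 targets and from 37.3% to 40.5% in MAPK signaling. With intervals this wide, staying within them says little for lists with 3 to 16 listed genes. No paired analysis was possible because each condition has 1 library, and no library could be left out. The authors' threshold for a changed gene could not be varied, since the table holds no value per gene.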

Other observations

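Other groups of the MAPK signaling pathway, where 40.5% of the changed genes were up, held genes of both directions. The phosphatases were 6 up and 5 down, the scaffolds and adaptors 4 and 3, and the kinases below the MAP kinases 2 and 2. Of 7 subunits of voltage-gated calcium channels, CACNB1 was listed as up and 6 as down, among them the T-type channel CACNA1G. The stress sensors GADD45A and GADD45G were up, as was the heat shock gene HSPA6, while HSPA2 was down. The near-identical copies HSPA1A and HSPA1B, listed as up, are uncertain. The kinase genes AKT1, PRKACB and PRKCA were down. Of the Hippo kinases, STK4 (MST1) was up and STK3 (MST2) down. These genes were named after their directions were seen.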
